A study of Mus musculus with 1507 samples.

Results

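The small nuclear RNAs (snRNAs) described here are the 48 snRNA genes, of 1382 in the gene models, whose mean estimated count over 3 libraries of rRNA-depleted total RNA (rdRNA-seq) from 1 µg of ES cell RNA was at least 10. They were therefore chosen by their level in those 3 libraries, and that level is given only as a description. Genes of identical sequence could not be separated by reads and were summed, which left 34 distinct sequences. Of the 1382 genes, 1056 had a count of 0 in each of the 3 libraries, and the 48 held 99.34% of the snRNA count. Just inside the threshold lay Gm25189 (10.7 counts), Gm23330 (12.9) and Gm23686 (13.2), and just outside it Gm25202 (9.89), Gm22628 (9.86), Gm24242 and Gm23092 (9.67 each). A minimum of 5 would have taken 59 genes (44 sequences) and one of 20 would have taken 43 (29 sequences).

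All samples came from 5G6GR, a mouse ES line that carries a randomly integrated fusion of Gata6 with the glucocorticoid receptor and that turns into primitive endoderm (PrE) under dexamethasone. From ES cell RNA, the libraries used were of 1 µg by rdRNA-seq (3) and after selection of poly(A) RNA (paRNA-seq, 3), of 10 pg by RamDA-seq (3), by SMART-Seq v4 (4) and by C1-RamDA-seq (4), of 10 pg again in full sets of 96 RamDA-seq libraries, 95 C1-RamDA-seq libraries and 94 libraries of SMART-Seq v4 on the chip (C1-SMART-Seq v4), of 1 ng by RamDA-seq and by rdRNA-seq (3 each), and of 10 ng by rdRNA-seq (3). RamDA-seq primes along the RNA with not-so-random 6-mers, from which matches to rRNA were removed, beside oligo-dT, and C1-RamDA-seq runs the same chemistry on a microfluidic chip, whereas SMART-Seq v4 primes with oligo-dT. The rdRNA-seq of 1 ng and 10 ng used another kit than that of 1 µg. Single cells were ES cells of G1, S and G2/M (93, 91 and 93), cells at 0, 12, 24, 48 and 72 h of dexamethasone (92, 91, 93, 87 and 93, with 0 h untreated), ES and PrE cells on 4 plates named B1, B2, E1 and E2 (189 and 195 wells), and C1-captured ES and PrE cells (16 and 39). Another 9 wells held 10 pg of ES cell RNA and 9 more a share of 1 pooled lysate of G1 cells. The libraries of a method drew on diluted ES cell RNA and no label gives separate cultures, so p-values between methods measure the spread between these libraries, which may be technical.

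snRNAs are the RNA cores of the particles that remove introns. U1 pairs with the 5′ splice site, U2 with the branch point, U5 holds the exons in place and U6 takes part in catalysis, while U12 reads the branch point of the minor class of introns. Apart from U6, they are made by RNA polymerase II, carry a ring of Sm proteins and end without a poly(A) tail, and the mouse has a and b forms of U1, of which b forms are known from embryonic tissues.

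Each sequence was placed in a family only by at least 70% identity to a gene whose symbol names a U RNA. By this, 14 sequences were U1 (8 nearest to Rnu1a1, here a type, and 6 nearest to Rnu1b1, b type), 8 were U2, 4 were U5, 1 was U6 (Gm26331) and 1 was U12 (Rnu12). The other 6 had no family name in the annotation used here: Gm24407, Gm24265, Gm25541, Gm22710, Gm23497 and Gm23865. No gene of U4, U4atac or U6atac, which are further snRNA families, was among those compared. Sequences of these families could therefore not have been placed. U1 sequences were 164 to 166 nt long, U2 sequences 191 nt, U5 116 nt, U6 107 nt, U12 151 nt, and Gm24407 and Gm24265 141 nt each. The sequences below are from the GENCODE transcripts of GRCm38, whose lengths were equal to those of the models used in the files for all 48 genes. Positions in substitutions are counted from 1 at the 5′ end.

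The U1 forms are shown first because the methods differed in their balance. Rnu1a1 lies on chromosome 11 at 87422867 to 87423030 (plus strand), inside an intron of Tex14, and stands for 7 identical genes. Gm22614 lies on chromosome 3 at 96488729 to 96488893 (plus strand) and stands for 2. Capitals mark the bases that differ between them, which were T60C, T62C, C73T, C74G and A77G from Rnu1a1 to Gm22614, besides 1 gap.
Rnu1a1: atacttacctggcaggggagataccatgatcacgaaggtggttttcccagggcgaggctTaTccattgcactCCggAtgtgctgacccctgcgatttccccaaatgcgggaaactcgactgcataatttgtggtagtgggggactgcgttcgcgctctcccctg
Gm22614: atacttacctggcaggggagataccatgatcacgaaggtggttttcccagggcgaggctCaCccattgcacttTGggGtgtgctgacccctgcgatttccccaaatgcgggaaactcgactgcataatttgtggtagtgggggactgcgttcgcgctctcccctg

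The U2 forms are shown because 2 of them went in opposite directions between ES and PrE cells. Rnu2-10 stands for 4 identical genes and lies on chromosome 11 at 101658238 to 101658428 (plus strand), in an intron of Arl4d. Gm26316 lies on the same chromosome at 101604850 to 101605040 (plus strand), and Gm24497 on chromosome 1 at 72244213 to 72244403 (plus strand), within an intron of D230017M19Rik. The capital in Rnu2-10 marks its difference from Gm23444, a further U2 form (G109C). The capitals in the other sequences mark their differences from Rnu2-10. Gm23444 differed from Gm24497 by C186A and Gm26316 from Rnu2-10 by T170C.
Rnu2-10: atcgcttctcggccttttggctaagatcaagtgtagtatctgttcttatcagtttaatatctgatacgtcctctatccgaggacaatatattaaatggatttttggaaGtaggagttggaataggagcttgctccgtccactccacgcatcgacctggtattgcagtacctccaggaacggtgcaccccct
Gm24497: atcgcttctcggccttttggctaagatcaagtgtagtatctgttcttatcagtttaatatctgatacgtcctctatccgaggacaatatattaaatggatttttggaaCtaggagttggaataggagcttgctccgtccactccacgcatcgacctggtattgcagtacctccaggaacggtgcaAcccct
Gm26316: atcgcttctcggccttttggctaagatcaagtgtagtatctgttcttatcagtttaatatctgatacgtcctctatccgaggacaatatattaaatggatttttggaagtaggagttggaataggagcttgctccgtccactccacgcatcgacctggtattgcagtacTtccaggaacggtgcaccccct

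Gm24407 and Gm24265 are shown because their share of the snRNA count differed between methods. They lie side by side on the plus strand of chromosome 5, Gm24265 at 115489459 to 115489599 and Gm24407 at 115490254 to 115490394. Capitals mark A88G and A99C, the only differences from Gm24407 to Gm24265, so reads from the rest of the RNA could be shared out between them only by estimation.
Gm24407: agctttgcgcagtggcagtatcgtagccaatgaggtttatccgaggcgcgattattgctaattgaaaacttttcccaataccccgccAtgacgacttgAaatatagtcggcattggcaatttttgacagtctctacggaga
Gm24265: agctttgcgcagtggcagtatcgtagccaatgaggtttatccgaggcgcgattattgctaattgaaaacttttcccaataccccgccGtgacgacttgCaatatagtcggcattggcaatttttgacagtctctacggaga

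Rnu12, of the minor class of introns, lies on chromosome 15 at 83149644 to 83149794 (plus strand) and is shown as the only U12 sequence. Capitals mark the letters GTAAGGA.
Rnu12: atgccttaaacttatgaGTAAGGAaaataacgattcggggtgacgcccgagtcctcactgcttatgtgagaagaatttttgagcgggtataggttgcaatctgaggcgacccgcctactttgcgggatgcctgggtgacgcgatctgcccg

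Short runs known to work in U1, U2 and U12 were searched on the RNA strand, as DNA letters. ACTTACCTG, with which U1 meets the 5′ splice site, stood in 13 of 14 U1 sequences (not in Gm24046) against 3.98% of all 1382 snRNA genes. GTAGTA, with which U2 meets the branch point, stood in 8 of 8 U2 sequences against 3.69% of all. GTAAGGA, with which U12 meets the branch point, stood in Rnu12 against 1.37% of all. TTTNTG, a run like the site of the Sm ring, stood in 31 of the 34 sequences and in 30% of all snRNA genes, and Gm26331, Gm25541 and Gm23865 lacked it. Such a match describes the letters and is no measured site. Of the 4096 possible 6-mers, 408 (9.96%) are first-strand primers of RamDA-seq, and their matches numbered 17 to 24 in the U1 sequences, 21 to 25 in U2, 12 in Gm24407, 14 in Gm24265, 8 or 9 in U5, 7 in Gm26331 and 10 in Rnu12. Per 100 positions, the U2 sequences held 11.3 to 13.4 matches, Gm24407 8.82 and Gm24265 10.3. The part of these matches in the counts was not tested.

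The deposited values for RNA libraries were estimated counts, and their sum over a library was 5713519 to 8962910 from 10 pg and 1 µg, 5709800 to 7116500 from 1 ng and 10 ng, and 644949 to 956781 in the full sets. Single cells were deposited as TPM, which divide by effective length. In a RamDA-seq library of 1 ng, 1 count was worth a median of 4.04 TPM for transcripts of 97 to 116 nt, 3.25 for 141 nt, 2.83 for 164 to 166 nt and 2.41 for 191 nt, but 0.0793 for 1900 to 2100 nt, so in that library a few TPM of a snRNA could be 1 read. Counts were not corrected for length, so a family's share of the count is set against its own share in other methods, and not against that of another family. On the plates, 22 of 384 wells had few transcripts detected (as low as 22, against a median of 28646 over all wells), and these wells were kept. ES cell markers summed to 1021 to 1206 TPM in the ES wells and 145 to 195 TPM in the PrE wells of a plate, and PrE markers to 350 to 2158 TPM and 12053 to 14491 TPM. The PrE markers of ES wells were higher on B1 and B2 (1746 and 2158 TPM) than on E1 and E2 (558 and 350 TPM), and their part in the results was not tested. All 13 PrE markers of the list reached 1 TPM in PrE wells of every plate, and fibroblast markers summed to at most 1.88 TPM in any plate group. The 4 trophoblast markers of the list summed to 10.6 to 12.9 TPM in ES wells and 149 to 188 TPM in PrE wells of a plate. Of these, the keratins Krt8 and Krt18 gave most of the sum in PrE wells (117 to 148 TPM and 29.6 to 37.7 TPM). Cdx2, a defining marker, was below 1 TPM in every plate group, whereas the other 3, Elf5 among them, averaged at least 1 TPM in each. The part of the trophoblast markers in the results was not tested.

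In 1 µg rdRNA-seq, which chose the members, the 34 sequences held 0.734 ± 0.125% of the counts (SD, n = 3), their means ran from 10.7 to 16558 counts, and Rnu1a1 had the highest count, with 18280, 18522 and 12873 counts over its 7 genes. Rnu2-10 had 9964, 11263 and 7535 counts, Gm24407 had 3346, 3314 and 2942, and Gm24265 had 3264, 3228 and 2906. The third library was the lowest for each of them. Of the member count, U1 made up 49.4 ± 0.920%, U2 37.7 ± 0.840%, Gm24407 and Gm24265 together 11.7 ± 1.33%, U5 0.610 ± 0.200%, U12 0.23 ± 0.05% and U6 0.190 ± 0.160%. Gm23444 (2 genes) had 6580, 7276 and 5214 counts, the b-type Rnu1b1 (2 genes) 1331, 1331 and 1191 and Rnu1b6 (3 genes) 1456, 1248 and 1029. Lower down, Gm25099, the highest U5, had 147, 137 and 61.6 counts, Rnu12 had 168, 131 and 84.5, and Gm26331 was at 0 in 1 library and at 141 and 193 in the others. In paRNA-seq of the same amount, the 34 sequences summed to 96.1 ± 8.72 counts (SD, n = 3) against 54665 ± 9176 in rdRNA-seq. U5, U6 and U12 were at 0 in each paRNA-seq library. Gm23497 and Gm23865 were the exceptions, with 31.7, 41.7 and 52.1 counts in paRNA-seq against 30.4, 12.9 and 20.5 in rdRNA-seq for the former, and 17.3, 32.9 and 23.4 against 11.7, 15.9 and 14.7 for the latter. Gm23497 lies in an exon of Tfcp2l1 on the same strand, and Gm23865 in an exon of Odf2 on the opposite strand. Counting used no strand, so reads of these genes and of their host genes cannot be told apart. Gm22710 likewise lies in an exon of the antisense gene 2900060B14Rik. Tfcp2l1 itself had 8665 ± 51.9 counts in paRNA-seq and 5258 ± 163 in rdRNA-seq, and Odf2 2309 ± 48.1 and 1039 ± 60.9 (SD, n = 3).

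From 10 pg, the 34 sequences summed to 833 ± 29.7 counts in RamDA-seq (SD, n = 3), 999 ± 76.8 in the 4 C1-RamDA-seq libraries and 100.1 ± 49.04 in the 4 SMART-Seq v4 libraries. Of the 34, 21 had at least 0.5 counts in some RamDA-seq library and 10 in all 3, 22 in some C1-RamDA-seq library and 8 in all 4, and 17 in some SMART-Seq v4 library and 1 in all 4. The sums were 0.0146%, 0.0149% and 0.00113% of the library, against the 0.734% of 1 µg rdRNA-seq. The sums of both RamDA methods, at 799.7 or more, lay above those of SMART-Seq v4, at 145 or less. The share of a family differed between methods. U2 went from 37.7% of the member count in 1 µg rdRNA-seq to 4.47 ± 1.09% in RamDA-seq and 2.43 ± 0.790% on the C1 chip, whereas Gm24407 and Gm24265 together went from 11.7% to 67.5 ± 1.46% and 23.01 ± 1.51%, respectively. The ratio to 1 µg rdRNA-seq is a description, since that method chose the members.

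**Figure D1:**
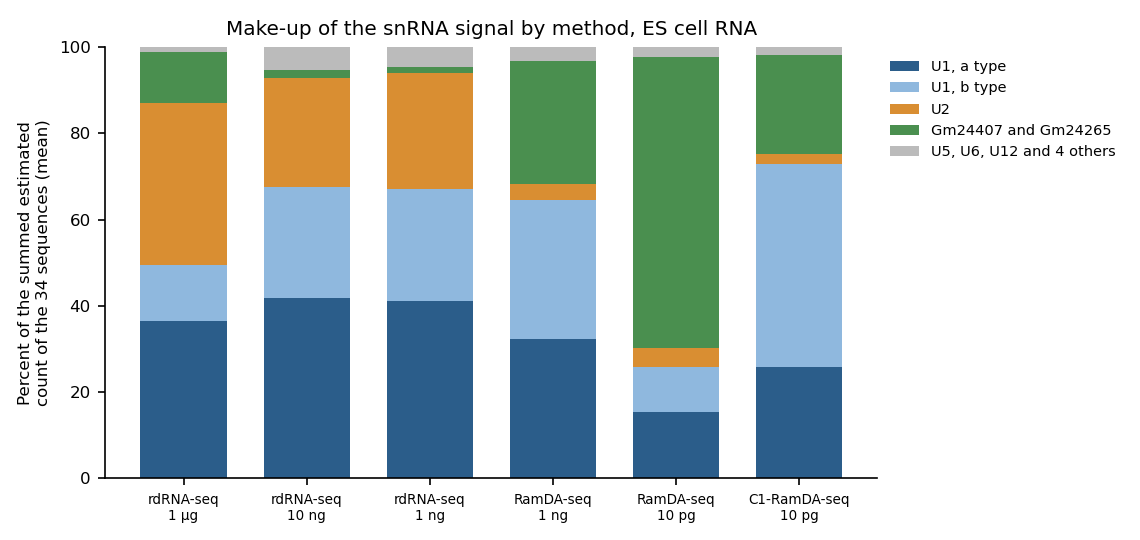
Stacked bars of the percent of the summed estimated count of the 34 snRNA sequences that fell to a-type U1, b-type U1, U2, the Gm24407 and Gm24265 pair and all others, as means over 3 libraries (4 for C1-RamDA-seq) of each method from ES cell RNA. The green share of the pair is 67.5% in RamDA-seq of 10 pg and 11.7% in rdRNA-seq of 1 µg, and the orange share of U2 is 37.7% in the latter and below 5% in the RamDA methods.

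The first comparison asks whether snRNAs were caught by RamDA-seq, which primes along the RNA, and missed by SMART-Seq v4, which primes with oligo-dT. These methods also differ in how cDNA is amplified, by strand displacement or by PCR. Priming therefore cannot be told apart from the other steps. Gm24265 had 351, 327 and 316 counts in the RamDA-seq libraries and 0 in each of 4 SMART-Seq v4 libraries. Gm24407 had 235, 248 and 210.1 counts against 0, 0, 0 and 1. Rnu1a1 had 86.4, 96.0 and 29.8 counts and Gm22513, an a-type U1, had 22.5, 22.8 and 26.8, both against 0 in each SMART-Seq v4 library. The libraries of both methods did not overlap for these 4. With a floor of 3 counts per library, Gm24265 was at least 268-fold, Rnu1a1 at least 57.2-fold and Gm22513 at least 19.4-fold higher in RamDA-seq on the TMM scale of the fit, and the ratio of Gm24407 was 2245 (95% counting interval 402 to 88783). With library size alone the bounds were lower, at 169-fold, 36.1-fold and 12.3-fold, and the ratio was 1416 (253 to 56012). Folds below are on the TMM scale. Intervals and floors here and below cover counting error only.

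Of the 34 sequences, 7 passed the filter on low counts, and 4 were higher in RamDA-seq and 0 lower, against 7.44% higher and 6.62% lower of all 12566 genes. A sequence near 0 in SMART-Seq v4 could pass that filter only through RamDA-seq, in which it was high, so here and in the next comparisons such counts describe and support nothing. With no filter, 27 were tested, and 2 were higher and 0 lower. In edgeR's quasi-likelihood test with Benjamini-Hochberg adjustment, the adjusted p was 0.004392 for Gm24265, 0.003521 for Gm24407, 0.02182 for Rnu1a1 and 0.01326 for Gm22513. These calls rested on few libraries: the count higher was 1 without RamDA-seq replicate 1, 2 without replicate 2 or without replicate 3, and the edgeR adjusted p of Rnu1a1 was then 0.0805 to 0.0881. Not called were Gm22614, with 70.3, 76.2 and 75.6 counts against 62.5, 0, 0 and 0 and so without overlap, Gm24924, an a-type U1 (edgeR adjusted p = 0.3571), and Gm23865, with 14.3, 5.35 and 15.1 against 43.9, 27.4, 35.8 and 29.3. Gm23865 was thus the only one of the 7 with a higher mean count in SMART-Seq v4, the libraries in which its host gene Odf2 had 2568 ± 484 counts (SD, n = 4) against 804 ± 25.9 in RamDA-seq (n = 3). The log2 fold of Gm23865 was −0.30 ± 0.76 (SE; edgeR adjusted p = 0.9022), and the part of Odf2 reads in its count was not tested. Sequences that did not pass the filter went both ways. Rnu1b6, a b-type U1, had 0.13, 0 and 0 counts in RamDA-seq against 0.14, 43, 73.02 and 0 in SMART-Seq v4. In C1-RamDA-seq, Rnu1b6 had 0.2, 0, 0 and 1.1 counts. Gm25360, a U2 form, had 5.12, 8.81 and 6.17 counts in RamDA-seq against 0, 0, 1.06 and 0 in SMART-Seq v4.

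C1-RamDA-seq was set against the same SMART-Seq v4 libraries, so the result is not independent of the first. Here 8 of the 34 passed the filter, and 6 were higher and 0 lower (also 6 and 0 of 28 with no filter), against 10.8% higher and 8.97% lower of all 12328 genes. Gm24265 had 183, 197, 145 and 198 counts (at least 102-fold higher; edgeR adjusted p = 0.002584). Rnu1a1 had 154.8, 165.8, 151.3 and 123.4 (at least 84.1-fold; 0.002946) and Gm22513 had 100.6, 89.3, 89.1 and 103.7 (at least 54.2-fold; 0.003376, both by edgeR). Each of these counts lay above the 0 of every SMART-Seq v4 library. The other called members were Gm24407, Rnu1b1 and Rnu2-10, and Gm22614 had 341 to 477 counts without passing the test (edgeR adjusted p = 0.09451). Gm26331, the U6 sequence, had at most 0.14 counts in any 10 pg library, and Rnu12 had 0 in RamDA-seq and SMART-Seq v4 and 0, 0, 21 and 12 in C1-RamDA-seq.

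**Figure D2:**
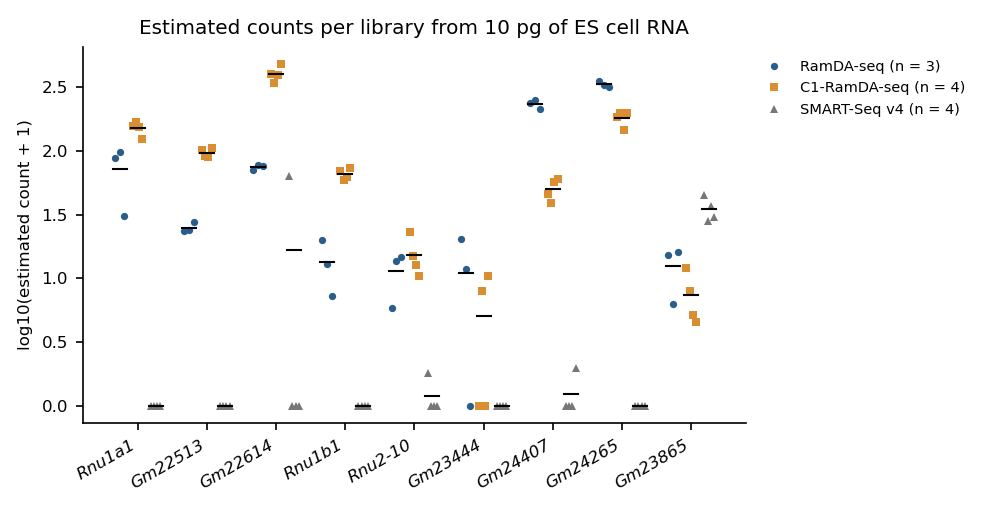
Each point is the estimated count of a snRNA sequence in 1 library from 10 pg of ES cell RNA, on a log10(count + 1) axis, for the 3 methods named in the legend, with a black bar at the log10 of the mean count + 1. Gm24407 and Gm24265 are high in the RamDA methods and at 0 or 1 in SMART-Seq v4. Among the sequences plotted, Gm23865 alone is highest in SMART-Seq v4, and Rnu1b6, which also had a higher mean there, is not plotted.

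The forms of RamDA-seq differed among themselves. Gm24407 had 235, 248 and 210.1 counts in RamDA-seq against 44.8, 37.96, 55.5 and 58.6 in C1-RamDA-seq (log2 fold 2.77 ± 0.29, edgeR adjusted p = 0.0008221), and Gm24265 went the same way (1.41 ± 0.21, 0.004321 by edgeR). Gm22614, a b-type U1, went the other way, with 70.3, 76.2 and 75.6 counts against 397, 341, 390.1 and 477 (−1.90 ± 0.24, edgeR adjusted p = 0.001885). The groups did not overlap for any of the 3. Of 9 sequences tested, 2 were higher and 1 lower in RamDA-seq, against 6.00% higher and 5.57% lower of all 13637 genes. The b type made up 26.2 ± 0.600% of the U1 count in 1 µg rdRNA-seq, 40.5 ± 2.51% (37.7 to 42.5%) in RamDA-seq and 64.6 ± 3.54% (59.9 to 68.4%) in its C1 form. Reads within the a type, and within the b type, can move between near-identical genes in the estimation, so the share is given over all b-type sequences together.

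The full sets asked the same at lower depth with more libraries, 1 chip or plate a method, so that method and chip or plate cannot be told apart. The 34 sequences summed to 193 ± 30.2 counts in RamDA-seq (SD, n = 96; lowest 100.2, median 195, highest 298), 103 ± 10.7 in C1-RamDA-seq (n = 95; 78.3, 103 and 131) and 8.77 ± 4.63 in C1-SMART-Seq v4 (n = 94; 0, 8.08 and 25.5). C1-SMART-Seq v4 did not overlap with either RamDA method. Gm24407 and Gm24265 together had 95.6 ± 14.7, 19.1 ± 4.54 and 0.0745 ± 0.366 counts. U2 had 4.21 ± 2.12, 3.26 ± 1.83 and 3.19 ± 3.37 counts, and the lowest library had 0 in each of the 3 sets. Rnu2-10 had at least 0.5 counts in 73.96% of RamDA-seq libraries (exact 95% interval 64 to 82.4%), 67.4% of C1-RamDA-seq (56.98 to 76.6%) and 64.9% of C1-SMART-Seq v4 (54.4 to 74.5%), while Gm24265 had it in 100.0%, 100.0% and 4.26% (1.17 to 10.5%).

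On the chip, 3 sequences were tested between the RamDA and SMART chemistries, and 3 were higher and 0 lower, but 44.1% of all 8930 genes were higher and 40.8% lower. They were Gm24265, at least 9.12-fold higher, Rnu1a1 (log2 fold 6.22 ± 0.18) and Gm22614 (6.42 ± 0.19), with edgeR adjusted p of 7.872e-84, 4.949e-82 and 1.936e-83. Between C1-RamDA-seq and RamDA-seq, 4 were tested, 0 were higher and 4 lower in C1-RamDA-seq, against 19.4% higher and 18.5% lower of all 8354 genes. Gm24407 fell by 4.08 ± 0.11 on the log2 scale and Gm24265 by 2.20 ± 0.05, with no overlap between the libraries of the chip and the plate (edgeR adjusted p of 8.394e-87 and 4.696e-104). Rnu1a1 fell by 0.64 ± 0.09 and Gm22614 by 0.56 ± 0.07, both with overlap (edgeR adjusted p of 2.58e-10 and 1.427e-11). In these sets b-type U1 averaged 43.2 counts on the chip and 47.2 on the plate, against a-type means of 32.5 and 42.4. Gm22614 was thus lower on the chip in these sets and higher on it in the smaller sets, where it had 341 to 477 counts against 70.3 to 76.2.

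With 1 ng in both methods, RamDA-seq could be compared with rRNA depletion at an equal amount of RNA. Gm24265 had 397, 261 and 307 counts in RamDA-seq against 10.8, 0.5 and 8 in rdRNA-seq (log2 fold 5.81 ± 0.35, edgeR adjusted p = 7.314e-10). Gm24407 had 102, 98.2 and 103 against 1.2, 0.5 and 8 (5.18 ± 0.48, edgeR adjusted p = 2.232e-07). U2 went the other way: Gm23444 had 3.19, 15.5 and 0 counts against 61.8, 94.3 and 44.6 (−3.22 ± 0.60, edgeR adjusted p = 0.0003893). Neither the pair nor Gm23444 overlapped between the methods. Single libraries moved these folds: that of Gm24407 was 7.47 without rdRNA-seq replicate 3, that of Gm24265 was 6.45 without rdRNA-seq replicate 1, and that of Gm23444 was −5.20 without RamDA-seq replicate 2. Over all runs without 1 library they were 4.63 to 7.47, 5.24 to 6.45 and −5.20 to −2.64, and all 3 kept their call.

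Rnu2-10 had 30.3, 37.4 and 24.2 counts in RamDA-seq against 89.3, 62.9 and 68.3 (log2 fold −1.10 ± 0.27, edgeR adjusted p = 0.003322), and Gm22973, a further U2 form, had 0 in each RamDA-seq library against 23, 18 and 13, at least 5.36-fold higher in rdRNA-seq (edgeR adjusted p = 0.000128). The 8 U2 sequences together had 43, 58.9 and 49.9 counts in RamDA-seq and 209, 208 and 171 in rdRNA-seq, so U2 did not overlap as a family either. Among U1, the b-type Gm22042 had 105.3, 68.98 and 133.7 counts in RamDA-seq and 0 in each rdRNA-seq library (at least 38.5-fold higher, edgeR adjusted p = 3.49e-08). Gm22614 had 370, 271 and 115 counts against 27.4, 8.53 and 72.3 (log2 fold 2.98 ± 0.45, edgeR adjusted p = 4.967e-05). Gm22042 differs from Gm22614 by 1 base (C22T), so reads can move between b-type forms in the estimation. All b-type U1 together had 533, 374 and 525 counts in RamDA-seq against 170, 253 and 162 in rdRNA-seq. As a family U1 had 1135, 773 and 959 counts against 457, 630.0 and 411, and b type made up 50.05 ± 4.14% of it in RamDA-seq and 38.9 ± 1.49% in rdRNA-seq (SD, n = 3). Of 14 sequences tested, 7 were higher and 3 lower in RamDA-seq, against 18.2% higher and 19.8% lower of all 14755 genes, and the remaining called ones were Rnu1a1 (0.81 ± 0.22), Gm22513 (1.04 ± 0.27) and Gm23865 (2.40 ± 0.69), all higher.

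**Figure D3:**
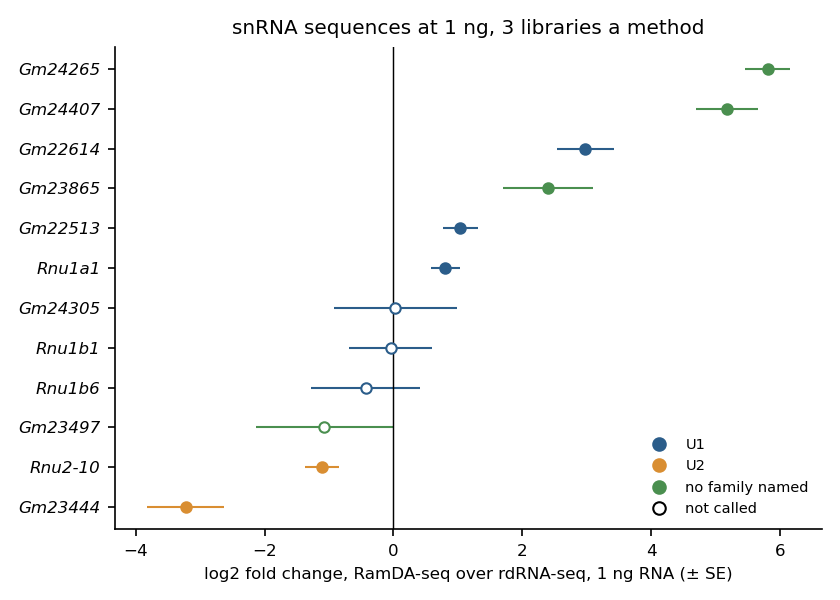
Log2 fold change of RamDA-seq over rdRNA-seq from 1 ng of RNA (3 libraries each) with its standard error, for the 12 tested snRNA sequences with counts in both methods, and open circles for those that did not pass the test. The pair Gm24265 and Gm24407 stands at 5.81 and 5.18, and the U2 forms Rnu2-10 and Gm23444 at −1.10 and −3.22.

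The amount of RNA within the rdRNA-seq kit was tested on its own, 1 ng against 10 ng. Of 12 sequences tested, 0 were higher and 0 lower in edgeR's test and also in DESeq2, against 0.00% higher and 0.144% lower of all 14589 genes. At an unadjusted p under 0.05 in edgeR's test, for which the share of all genes is not given here, there were 2 of the 12. These were Gm22614, with 27.4, 8.53 and 72.3 counts from 1 ng against 145, 127 and 157 from 10 ng (log2 fold −2.01 ± 0.39, edgeR adjusted p = 0.09617), and Rnu12, with 6, 10 and 9 against 13, 25 and 14. Neither overlapped between the amounts. Gm24407 and Gm24265 together had 12, 1 and 16 counts from 1 ng and 20, 11 and 18 from 10 ng, 1.44% and 1.78% of the member count, where the other kit had 11.7% from 1 µg. The kit and the amount of RNA cannot be told apart in that difference.

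On the 4 plates, the mean over the wells of a cell type on a plate was the unit compared, with n = 4 against 4. No label gives a separate culture for each plate, so these p-values measure the spread between plates, which may be technical. Gm24497, a U2 form, had a mean of 4.94, 4.56, 3.20 and 3.58 TPM in ES wells of B1, B2, E1 and E2 and of 12.5, 14.03, 12.2 and 10.3 TPM in PrE wells. Every PrE mean lay above every ES mean (difference in log2(TPM + 1) of 1.39 ± 0.14, higher on 4 of 4 plates, limma adjusted p = 2.901e-05). Gm26316, which also is U2, had 5.34, 5.82, 5.18 and 6.15 TPM in ES wells and 3.46, 3.71, 3.796 and 3.06 TPM in PrE wells, and the groups did not overlap (−0.56 ± 0.09, lower on 4 of 4 plates, limma adjusted p = 0.0007218). Gm24497 lies in an intron of D230017M19Rik on the same strand, and that gene had 0.640 to 0.990 TPM in ES wells and 2.48 to 2.64 TPM in PrE wells of a plate (0.98 ± 0.09, limma adjusted p = 2.318e-05). Its part in the Gm24497 values was not tested. Gm24497 differs from Gm23444, and Gm26316 from Rnu2-10, by 1 base of 191, so reads can move between these forms in the estimation. Neither Gm23444 (0.51 ± 0.24, limma adjusted p = 0.1014) nor Rnu2-10 (−0.13 ± 0.13, limma adjusted p = 0.3849) was called.

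Gm23143, a U5 form, had 0.474, 0.824, 1.79 and 0.471 TPM in ES wells and 1.68, 2.62, 3.93 and 6.56 TPM in PrE wells, and the ES wells of E1 lay above the PrE wells of B1 (1.26 ± 0.33, higher on 4 of 4 plates, limma adjusted p = 0.01025). Gm23497 had 2.21, 3.82, 7.76 and 2.13 TPM in ES wells and 0, 1.09, 0.554 and 1.05 TPM in PrE wells (−1.50 ± 0.37, lower on 4 of 4 plates, limma adjusted p = 0.006799). It lies in an exon of Tfcp2l1, a naive ES cell transcription factor, which itself fell by 4.61 ± 0.29 on the same scale (limma adjusted p = 1.539e-06), and their reads cannot be told apart. Genes were tested when they averaged at least 1 TPM over all plate means. Gm23143 averaged 0.889 TPM in ES wells and Gm23497 0.673 TPM in PrE wells. Each passed this filter only through the cell type in which it was high, so these 2 calls describe and support nothing. Of 25 sequences tested, 2 were higher and 2 lower in PrE cells, against 34.8% higher and 24.5% lower of all 16188 genes, so fewer of them passed the test than of all genes. With medians over cells in place of means, 11 sequences were tested and 0 were higher and 1 lower, and without the 27 wells of fewest detected transcripts 2 were higher and 3 lower.

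The most abundant forms did not pass it. Rnu1a1 had 323 to 529 TPM in ES and 341 to 450.4 TPM in PrE wells (−0.16 ± 0.18, limma adjusted p = 0.4556), Gm22614 had 922 to 1285 and 911 to 1112 TPM (−0.10 ± 0.13, 0.5201 by limma) and Gm24407 had 167 to 225 and 155 to 213 TPM (−0.11 ± 0.13, limma adjusted p = 0.5147). All 3 overlapped between the cell types. With the plate as a block, Gm25360, a U2 form also on chromosome 1, was lower as well, at 5.22, 2.87, 6.53 and 5.73 TPM in ES wells and 4.44, 1.57, 3.09 and 4.07 TPM in PrE wells (−0.52, blocked limma adjusted p = 0.01937, against 0.1432 without the block).

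**Figure D4:**
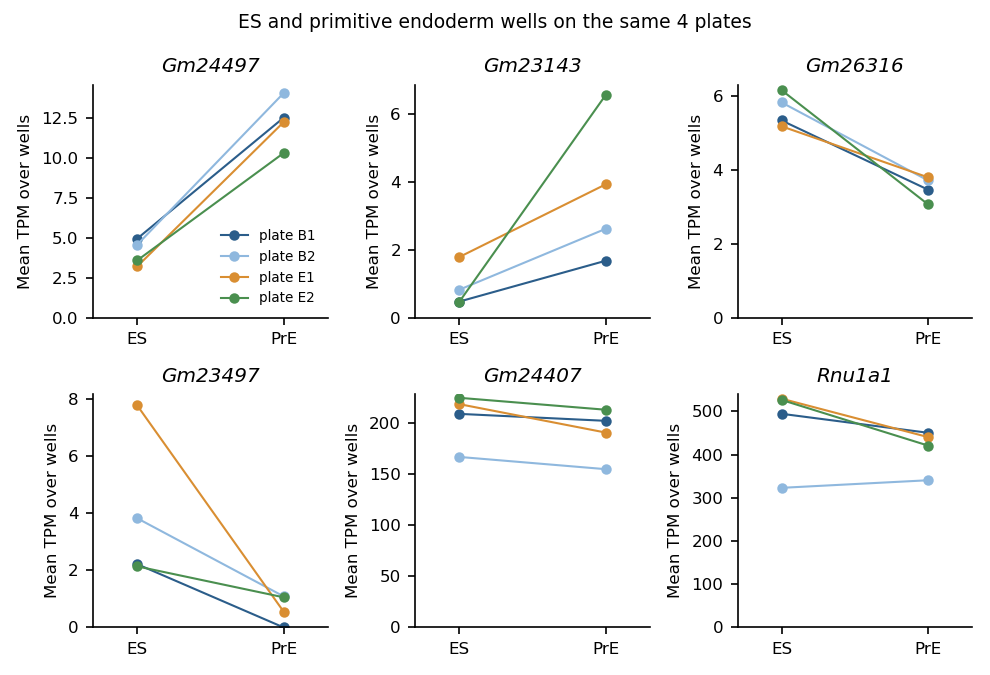
Mean TPM over the ES wells and over the PrE wells of each of 4 plates, 1 line per plate, for 6 snRNA sequences, with every vertical axis from 0. The lines of Gm24497 and Gm23143 rise and those of Gm26316 and Gm23497 fall on all 4 plates, while the ES and PrE values of Gm24407 and of Rnu1a1 overlap.

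The time course holds 1 set of cells a time, so its values are described without a test. Gm24497 averaged 8.75, 11.1, 17.5, 28.1 and 27.9 TPM at 0, 12, 24, 48 and 72 h, and was detected at 0.1 TPM or more in 54.3% of cells at 0 h (exact 95% interval 43.6 to 64.8%) and 72.0% at 72 h (61.8 to 80.9%). Gm26316 averaged 1.92, 1.98, 2.37, 0.739 and 0.778 TPM, with 29.3% (20.3 to 39.8%) of cells at 0 h and 13.98% (7.66 to 22.7%) at 72 h. Each of these U2 forms thus changed from 0 h to 72 h in the same direction as from ES to PrE wells of the plates. At 0 h Gm24497 lay above Gm26316, however, while in ES wells of every plate it lay below. D230017M19Rik averaged 1.89, 1.92, 3.91, 4.42 and 4.33 TPM over the same times. Summed over its 8 sequences, U2 averaged 66.9, 58.7, 73.8, 94.2 and 87.4 TPM, with an SD over cells of 27.9 TPM at 0 h and 43.7 TPM at 72 h.

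Gm23497 averaged 16.2, 11.2, 9.92, 2.43 and 1.82 TPM, and Tfcp2l1 went from 96.1 to 54.7, 40.98, 8.84 and 4.397 TPM. Gm23143 averaged 2.25, 4.74, 2.10, 2.42 and 6.06 TPM, with no steady course, and its median over cells was 0 at each time. Gm24407 was detected in 100.0% of cells at every time, at 190, 224, 135, 153 and 249.8 TPM, and its SD over cells was 78.6 to 141 TPM. Gm24265 averaged 318, 371, 247, 235 and 369 TPM and Rnu1a1 202, 302, 178, 219 and 231 TPM. All 3 were higher at 12 h than at 24 h by less than the SD over the cells of 12 h, which is the spread of single cells and not the error of a mean. A cell had a median of 14 or 15 of the 34 sequences detected at every time. Rnu12 was detected in 9.78% (4.57 to 17.8%) of cells at 0 h and 20.4% (12.8 to 30.1%) at 72 h, at means of 2.82 and 6.22 TPM. TPM are relative to all RNA of a cell, so the number of snRNA molecules per cell was not measured.

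The share of Gm24407 and Gm24265 in their sum with U1, which needs no comparison of depth, set the sample sets apart. In TPM it was 78.6 ± 4.93% in the 9 wells with 10 pg of ES cell RNA (SD, n = 9; 69.9 to 85.3%) and 31.6 ± 4.19% in the 9 wells of G1 lysate (23.9 to 37.6%), with no overlap. In the purified RNA wells, the pair had 1651 ± 488 TPM and U1 437 ± 107 TPM, and in lysate wells 393 ± 46.1 and 863 ± 155 TPM. Sorted cells were nearer to the lysate, with means of 39.4% in G1, 44.3% in S and 45.6% in G2/M, and of 37.4 to 46.8% over the times. On the plates it was 23.8 to 28.3% in the 8 groups, and in C1-captured cells 8.80 ± 3.63% (ES, n = 16) and 11.8 ± 4.08% (PrE, n = 39). These sets were not matched in sample type or run, and what set them apart was not tested. From 1 ng, the share was 33.8 ± 0.934% in RamDA-seq and 2.47 ± 2.10% in rdRNA-seq, and rdRNA-seq of 1 µg had 19.5 ± 1.90% on the merged gene models (SD, n = 3 each).

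The b-type share of U1 spread less. It was 44.6 ± 10.5% in wells of purified RNA and 44.5 ± 6.38% in lysate wells, 45.3 to 45.8% in the 3 phases, 51.1 to 59.2% over the times, 59.8 to 65.4% on the plates and 51.02 and 49.4% in C1-captured ES and PrE cells. Over the phases, U1 had a mean of 1094 TPM in G1, 824 in S and 812 in G2/M, with SDs of 554, 211.4 and 336 TPM over cells. Both differences from G1 were smaller than the SD of G1, but an SD over cells is not the error of a mean. The differences were not tested. The pair had 698, 654 and 667 TPM in the same order. In C1-captured cells Gm26316 was detected in 75% (47.6 to 92.7%) of 16 ES cells and 28.2% (15 to 44.9%) of 39 PrE cells, and Gm24497 in 43.8% (19.8 to 70.1%) and 43.6% (27.8 to 60.4%).

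**Figure D5:**
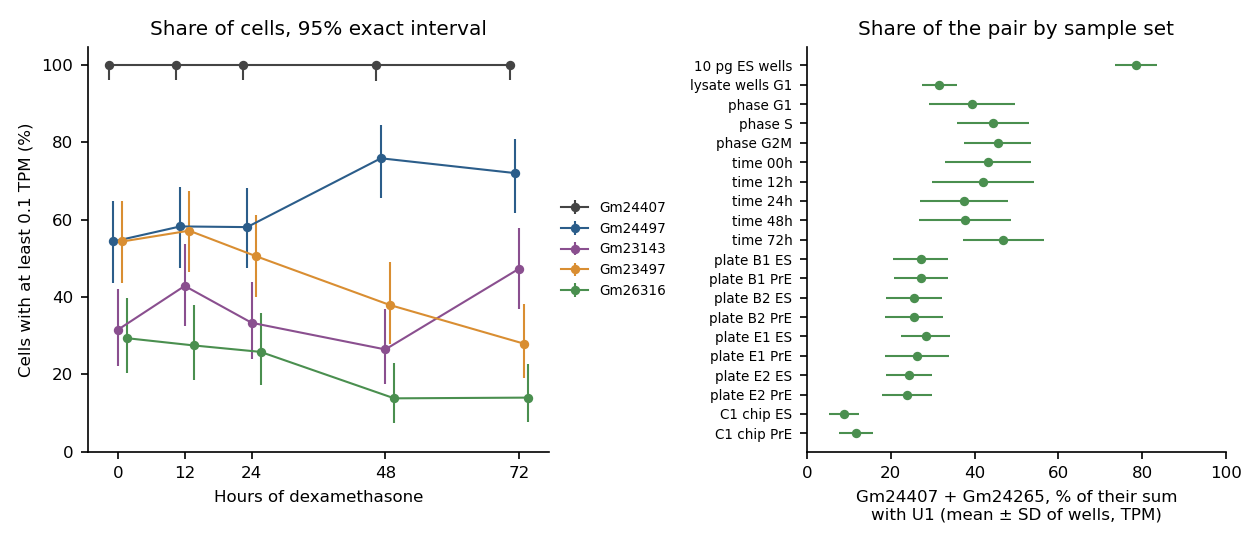
Left, percent of cells with at least 0.1 TPM of 5 snRNA sequences by hours of dexamethasone, with exact 95% intervals. Right, mean ± SD over wells of the share of Gm24407 and Gm24265 in their sum with U1 (TPM) for each set of wells: 78.6% in wells of purified RNA, 31.6% in lysate wells, 37.4 to 46.8% over the times, 23.8 to 28.3% on the plates and 8.80 and 11.8% on the C1 chip.

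The proteins that snRNAs work with were counted from 8 lists. In 10 pg RamDA-seq against SMART-Seq v4, the polyadenylated mRNAs of the Sm ring went the other way from the snRNAs: 0 of 8 were higher and 7 lower, against 7.44% higher and 6.62% lower of all genes, with a median log2 fold of −1.50 against 0.12 for all genes, and Snrpd1 (−2.35 ± 0.23, edgeR adjusted p = 0.001058) and Snrpg (−2.04 ± 0.22, 0.001645 by edgeR) were the lowest. Of the LSm proteins, which bind U6, 0 of 7 were higher and 4 lower, among them Lsm7 (−3.43 ± 0.69, edgeR adjusted p = 0.01738). Of 16 tested proteins of the U4/U6.U5 particle, 3 were higher and 4 lower, and Prpf8, the large scaffold around the catalytic core, was higher (2.24 ± 0.37, edgeR adjusted p = 0.008959) while Txnl4a was lower (−1.42 ± 0.29, 0.01874 by edgeR). At 1 ng against rdRNA-seq, 0 of 8 Sm proteins were higher and 8 lower, and of 17 genes for snRNA transcription and 3′ end formation 9 were higher and 1 lower, against 18.2% higher and 19.8% lower of all 14755 genes.

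Between PrE and ES cells on the plates, 7 of 23 genes of snRNP assembly were higher and 5 lower. Phax, the adaptor that exports snRNAs from the nucleus, rose (0.78 ± 0.13, limma adjusted p = 0.0006248), as did Usb1, which trims the end of U6 (0.75 ± 0.12, 0.000471 by limma). Ddx20 (−0.86 ± 0.14, limma adjusted p = 0.0006188) and Gemin4 (−0.79 ± 0.12, 0.0003432 by limma), both of the SMN complex that loads Sm proteins, fell. Of 17 genes for transcription and 3′ end formation, 5 were higher, Snapc1 (0.64 ± 0.12) and Snapc2 (0.60 ± 0.11) of the snRNA activating complex among them, and 3 lower, with Ints4 (−0.71 ± 0.15) and Ints9 (−0.54 ± 0.14) of the Integrator complex among those. Of the Sm proteins 0 of 8 were higher and 2 lower, and Snrpn fell by 2.46 ± 0.13 on the log2 scale (limma adjusted p = 4.71e-07). Of all genes 34.8% were higher and 24.5% lower, so no list had a larger share higher than all genes.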

How the data were processed

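RNA libraries and single cells of mouse 5G6GR cells were analysed in the groups given by the labels. The authors trimmed reads, quantified GENCODE vM9 transcripts with Sailfish (library type U, hence no strand) and deposited estimated counts for RNA libraries, from subsampled reads at 10 pg and 1 µg, and TPM for single cells and some RNA wells. TPM on gene models merged from vM9 and assembled transcripts (the deposited GTF, from which gene type and coordinates were read; GRCm38) served for 1 µg. The authors' columns of 16 other samples were not used, and bulk PrE libraries are not analysed here.

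Estimated counts were summed per gene and rounded, identical copies were summed, and ERCC rows were left out. Genes were compared with edgeR 4.0.16 (TMM, filterByExpr, quasi-likelihood test) in R 4.3.3 and, as an alternative, DESeq2 1.42.0. Plate means as log2(TPM + 1), for genes with a mean of at least 1 TPM, were compared with limma 3.58.1 (trend). Fold changes on that scale understate those of low genes. Calls were made at a Benjamini-Hochberg adjusted p of 0.05 over all genes. Folds are the first group minus the second on the log2 scale, with SE. Detection in cells meant at least 0.1 TPM, and 95% intervals were exact binomial (Python 3.11.15, SciPy 1.17.1). The fits were tested on simulated data.

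The members, lists and tests were chosen with earlier results of these data known. Named were members with a U RNA symbol, the 2 highest of each family, the 3 largest called folds in each direction per comparison, those next to the threshold, and, from lists, up to 2 called genes in each direction; others named were chosen after their values were seen. Replicate numbers did not pair libraries of different methods, whose deviations correlated at −0.042 to 0.064. Plates are shared batches by their labels, and ES and PrE deviations of a plate correlated at 0.032 to 0.083. Alternatives were other scalings, no filter, every copy as a row of its own, a pseudocount of 0.1, medians over cells, leaving out each replicate, and a replicate block.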

Additional observations from a re-analysis of the deposited data

Results flagged for a closer look

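In 47 groups of 4 libraries or plates, the sample at 1 end was checked for a gap to the others, and 7 values stood apart. Chance alone passes this check in about 1 of 20 groups of normally distributed values. Where the others are all at 0, any checked value passes, as for Gm22614, Gm22973 and Gm23497 below, so that rate does not apply to them. Among the SMART-Seq v4 libraries of 10 pg, 1 library had 62.5 counts of Gm22614 where the others had 0, 1 had 32 counts of Gm26316 where the next had 0.2, 1 had 16.9 counts of Gm22973 where the others had 0, and 1 had 5.54 counts of Gm23497 where the others had 0. Among the plates, the ES wells of B2 had the lowest mean of Rnu1a1, 323 TPM, where the next plate had 494 TPM. Plate B1 had the highest mean of Rnu1b6 in ES wells, 41.3 TPM against a next value of 5.96 TPM, and in PrE wells, 14.2 TPM against 4.95 TPM.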

How the results depend on the processing

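The folds checked for direction were the largest called ones of each comparison, up to 3 in each direction, and none reversed in an alternative run. Of the counts of calls outside the runs that left out a replicate, 81 of 97 stayed within 1.5 times. Neither these counts nor the time course were checked for a reversal. For 10 pg RamDA-seq against SMART-Seq v4, 4 higher became 2 with no filter on low counts (27 tested) and 1 to 5 over the runs without 1 library, and the median of all genes moved from 0.12 to 0.58 with no filter and to −0.54 with library size alone. For C1-RamDA-seq against SMART-Seq v4, 0 lower became 1 with library size alone and with DESeq2, and 6 higher were 6 to 7 without 1 library. For RamDA-seq against C1-RamDA-seq, 1 lower became 3 with library size alone and with DESeq2. With no filter, the full chips gave 22 higher and 2 lower against C1-SMART-Seq v4 (33 tested) and 2 higher and 9 lower against RamDA-seq (32 tested), where more sequences of low count enter. For rdRNA-seq of 1 ng against 10 ng, 0 lower became 2 with no filter and 0 to 1 without 1 library (1 without 1 ng replicate 3). At 1 ng the counts were 5 to 8 higher and 3 to 4 lower without 1 library, and Rnu2-10 lost its call with every copy as a row of its own (−1.08, edgeR adjusted p = 0.09135).

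On the plates, medians over cells left 11 sequences tested, with 0 higher and 1 lower; leaving out 1 plate gave 2 to 3 higher and 2 to 4 lower (4 without B2). Leaving out 27 wells of few detected transcripts, an alternative chosen after seeing the data, gave 2 higher and 3 lower. The cause of these moves was not tested.

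With a replicate block, though the numbers pair no libraries, 10 pg RamDA-seq against SMART-Seq v4 gave 0 higher (edgeR adjusted p of 0.1375 for Gm24265, 0.1749 for Gm24407 and 0.2254 for Rnu1a1), C1-RamDA-seq against SMART-Seq v4 gave 2 higher, RamDA-seq against C1-RamDA-seq 1 higher, and rdRNA-seq of 1 ng against 10 ng 1 lower. The plate as a block gave 2 higher and 3 lower and lost no call.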
